A study of Mus musculus with 14 samples.

Results

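The potassium channel family of the mouse was followed here through 73 genes whose symbol starts with Kcn, covering pore-forming subunits and the accessory subunits named with them. The members were taken by symbol, from the probe sets annotated with exactly 1 symbol, with antisense and overlapping transcripts left out. They stood beside 14860 genes with a symbol in all and held 74 of 23332 probe sets, since Kcnc1 had 2. For each gene the probe set with the highest mean over all arrays was used. Relatives on the array without a probe set of their own symbol were not analysed here.

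RNA came from bulk cerebral cortex and hippocampus of C57BL/6 mice at postnatal day 7, all labelled male, and was hybridised to 14 Affymetrix exon arrays. Every animal carried floxed alleles of Ctcf (fl/fl), so the controls, which had no Cre (Nex-Cre +/+), shared these alleles with the conditional knockouts (cKO, Nex-Cre +/Cre). Nex is another name for Neurod6, a transcription factor of excitatory neurons of the cortex and hippocampus, and the Cre sits in its locus. Interneurons, glia and vessel cells therefore keep Ctcf, and the loss of Ctcf cannot be told apart here from the presence of Cre or from a changed Neurod6 allele. Neurod6 was lower in cKO cortex by 1.87 on the log2 scale (SE 0.21, limma adjusted p = 0.002). By label, cortex had 4 arrays for each genotype and hippocampus 3. The labels number biological replicates without tying any of them to an animal, so a p-value here reflects no more than the spread between arrays.

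The arrays labelled hippocampus control 2, hippocampus cKO 1 and hippocampus cKO 3 were near-copies of cortex control 3, cortex cKO 3 and cortex cKO 2. Each pair correlated at 0.997 (Spearman, over all probe sets), against at most 0.990 for the other 88 pairs of arrays. These 3 arrays were set aside, which left 11 arrays, with 2 control and 1 cKO array of hippocampus. The medians of the arrays ran from 6.57 to 6.77 (log2), a range wider than the members' median changes given below. Although every array carries the label male, the mean of 2 Y-linked genes did not exceed 4.10 on 4 of them (cortex cKO 1 and 4, hippocampus control 1, hippocampus cKO 2), while the other 10 arrays read 7.91 or more. Ctcf itself was lower in cKO cortex by 1.42 on the log2 scale (SE 0.08, limma adjusted p = 8.42e-05) and differed by -0.75 in hippocampus (adjusted p = 0.172).

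Potassium channels let potassium leave the cell along its gradient and so set the resting potential, end the action potential and shape the interval to the next one. The voltage-gated subfamilies (Kcna, Kcnb, Kcnc, Kcnd, Kcnh and Kcnq) open on depolarisation, and the silent subunits (Kcnf, Kcng, Kcns and Kcnv) form no channel alone but alter those they join. Inward rectifiers (Kcnj) and tandem-pore leak channels (Kcnk) act near rest, and Kcnma and Kcnn channels respond to calcium. Kcnab, Kcne, Kcnip and Kcnmb genes encode accessory subunits. In the early postnatal brain many of these currents are still growing as neurons mature.

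Of the 73 members, 57 had a mean above 5.71, the 95th percentile of 719 olfactory receptor probe sets, used as a guide to background in brain tissue. The 16 at or below it were Kcna7, Kcne1, Kcne2, Kcne3, Kcne4, Kcnj1, Kcnj5, Kcnj14, Kcnj15, Kcnk5, Kcnk7, Kcnk13, Kcnk18, Kcnn4, Kcnu1 and Kcnv2. Several of these are known mainly outside the brain, such as Kcnj1 of the kidney tubule and Kcnu1 of sperm. Levels of different probe sets depend on their probes and were not set against each other.

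The promoters of the 3 members with the smallest adjusted p in cortex are shown because the deleted gene encodes a DNA-binding protein that recognises a known sequence. Windows of 300 bases, from 250 before to 50 after the start of a transcript, came from RefSeq on GRCm38.p6, and 58 of the 73 genes had at least 1. The letters searched were CNAGNNGGC on both strands, a short core of the CTCF recognition sequence, where N is any base. The capitals below mark a match. The first window, of Kcnh1, lies at chr1:192190527-192190826 on the plus strand and holds no match, the second, of Kcnh5, at chr12:75177283-75177582 on the minus strand, and the third, of Kcnmb4, at chr10:116473474-116473773 on the minus strand.
Kcnh1: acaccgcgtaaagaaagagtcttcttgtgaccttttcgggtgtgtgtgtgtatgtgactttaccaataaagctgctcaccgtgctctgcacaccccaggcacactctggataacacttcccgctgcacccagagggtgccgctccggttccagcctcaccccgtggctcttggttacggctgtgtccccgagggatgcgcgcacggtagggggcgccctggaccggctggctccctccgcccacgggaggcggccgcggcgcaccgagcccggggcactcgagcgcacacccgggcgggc
Kcnh5: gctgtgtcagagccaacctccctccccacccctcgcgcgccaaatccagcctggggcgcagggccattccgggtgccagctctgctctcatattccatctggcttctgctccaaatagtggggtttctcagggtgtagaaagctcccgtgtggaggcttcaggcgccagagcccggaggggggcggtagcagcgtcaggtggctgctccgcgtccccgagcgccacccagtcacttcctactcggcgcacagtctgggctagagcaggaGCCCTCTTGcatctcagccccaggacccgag
Kcnmb4: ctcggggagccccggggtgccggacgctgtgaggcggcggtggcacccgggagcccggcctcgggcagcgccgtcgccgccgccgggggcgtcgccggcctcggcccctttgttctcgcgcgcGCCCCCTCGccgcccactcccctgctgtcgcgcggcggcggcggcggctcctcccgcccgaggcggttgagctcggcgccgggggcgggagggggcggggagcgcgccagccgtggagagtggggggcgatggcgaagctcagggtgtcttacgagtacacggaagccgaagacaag
The Kcnmb4 match lies upstream of the transcript start and the Kcnh5 match downstream of it. Over all members, 19 of 79 windows held the letters (24.1%), against 25.4% of the 14927 windows of all genes on the array with 1 symbol. Counted by gene, this was 19 of 58 members (32.8%) against 29.1% of 11894 genes. Of the 7 members lower in cKO cortex (below), 4 had a window with the letters, namely Kcnh5, Kcnip4, Kcnk2 and Kcnmb4, in 4 of their 12 windows (33.3%). A match describes letters only and is not a measured binding site.

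In cKO cortex 7 of the 73 potassium channel genes fell and none rose. They were the voltage-gated subunits Kcnh1 and Kcnh5, the silent subunit Kcnf1, the accessory subunits Kcnip4 and Kcnmb4, the inward rectifier Kcnj6 and the leak channel Kcnk2. The falls ran from 2.52-fold for Kcnh1 to 1.39-fold for Kcnk2. A gene counted as changed, here and below, at an adjusted p under 0.05 (limma, Benjamini-Hochberg over all probe sets) and a fold above 1.2. The 7 made up 9.59% of the members, against 1.95% of all 23332 probe sets called in this comparison and 1.36% called lower. Among the 57 members above the background guide the share was 12.3%, against 2.8% of all probe sets above it. The changes of the members ran from -1.33 to 0.43 with a median of -0.12, beside a median of -0.02 over all probe sets. A negative change was seen in 54 of 73 members (74%) and in 54.6% of all probe sets.

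**Figure D1:**
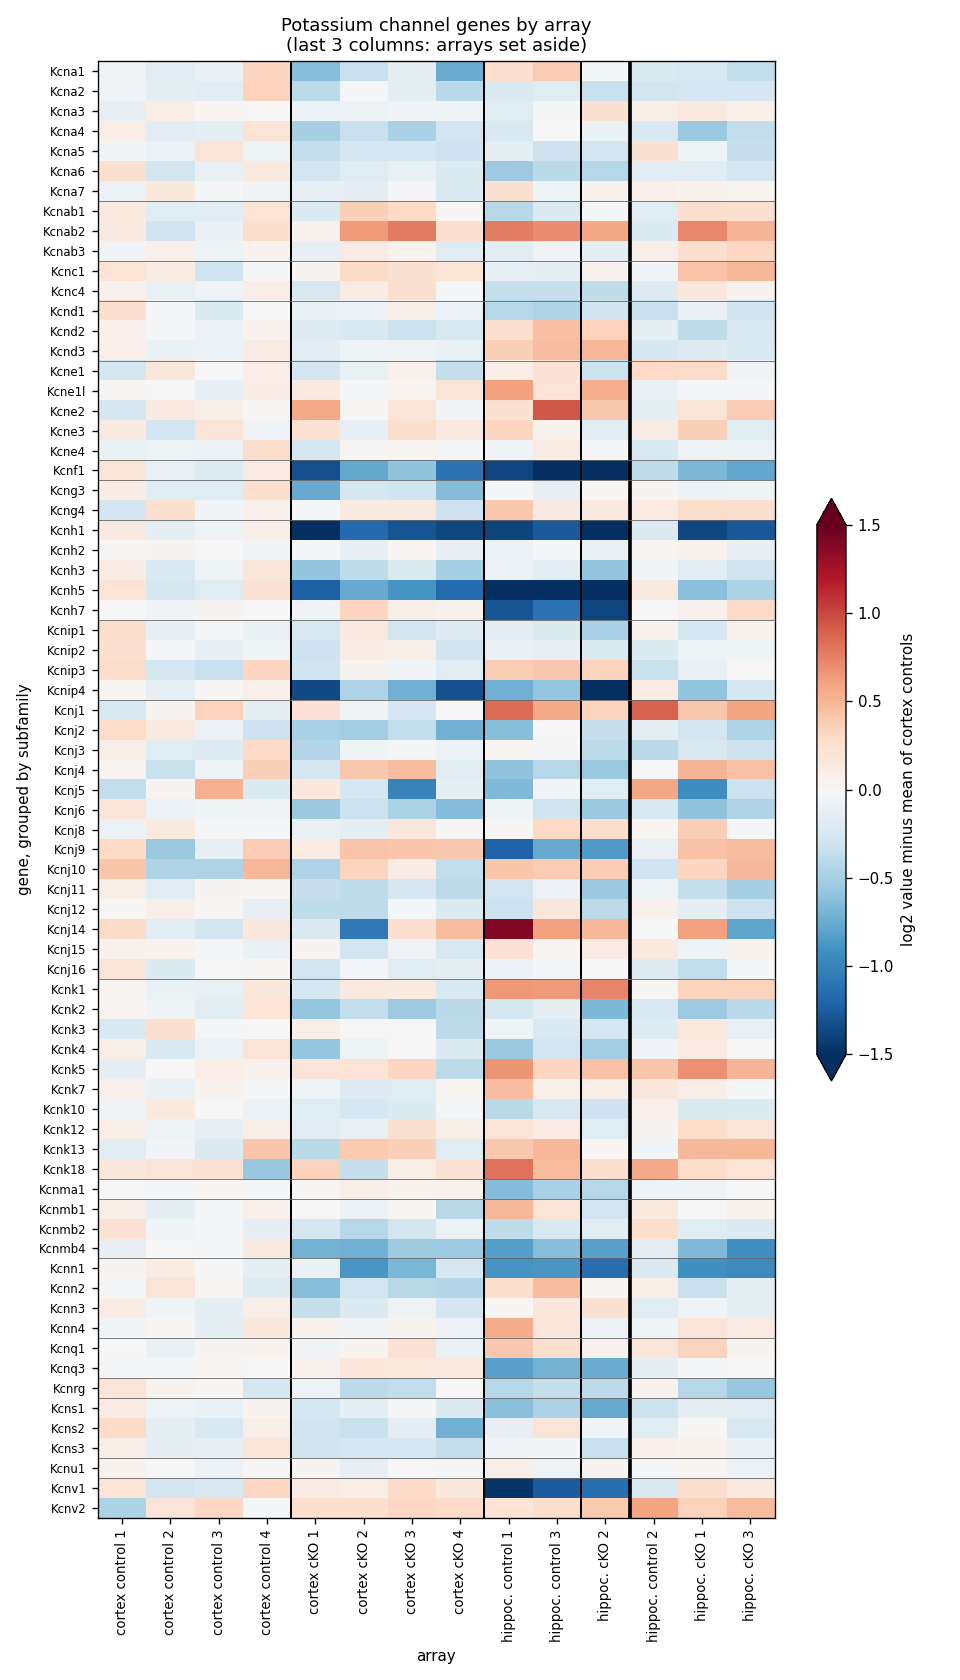
Log2 value of each of the 73 potassium channel genes (rows, grouped by subfamily) on each of the 14 arrays (columns), as the difference from the mean of the 4 cortex control arrays; colours saturate at 1.5 either way. Kcnf1, Kcnh1, Kcnh5, Kcnip4 and Kcnmb4 are blue on all 4 cortex cKO arrays, and the last 3 columns, labelled hippocampus but set aside, lack the deep blue of Kcnh7 and Kcnv1 seen on the other 3 hippocampus arrays.

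Kcnh1, a slowly activating ether-a-go-go channel of neurons, gave log2 values of 9.15, 8.86, 8.94 and 9.12 on the 4 cortex control arrays and 7.50, 7.85, 7.72 and 7.65 on the 4 cKO arrays. The groups were separated by about 1 log2 unit at their closest arrays. The mean went from 9.02 ± 0.14 (SD, n = 4) to 7.68 ± 0.14 (SD, n = 4), a change of -1.33 (SE 0.10, 95% interval -1.56 to -1.11, limma adjusted p = 0.000313). Its closest relative Kcnh5 read 9.33, 8.87, 8.94 and 9.34 in controls and 7.90, 8.36, 8.23 and 7.97 in cKO cortex. All cKO arrays lay below all controls, with a change of -1.005 (SE 0.15, limma adjusted p = 0.00907). The other Kcnh members were not called. Kcnh3, an ether-a-go-go-like channel of forebrain neurons, differed by -0.42 (SE 0.11, adjusted p = 0.14), and its lowest control array (8.75) and highest cKO array (8.76) overlapped. Kcnh2 and Kcnh7, of the erg type, differed by -0.06 (SE 0.06) and 0.10 (SE 0.09).

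Kcnf1, a silent subunit that joins Kcnb channels, read 9.40, 9.10, 9.02 and 9.33 in control cortex and 7.90, 8.45, 8.61 and 8.11 in cKO cortex. It fell by 0.95 on the log2 scale (SE 0.16, limma adjusted p = 0.0187). Among the cKO arrays the lower values were those of arrays 1 and 4, which lack the Y-linked signal. Kcnip4, a calcium-binding protein that slows the inactivation of Kcnd channels, was likewise lowest on arrays 1 and 4, with 8.49, 8.32, 8.47 and 8.53 in controls and 7.10, 7.99, 7.73 and 7.13 in cKO cortex. The spread of Kcnip4 was wider in cKO (SD 0.44, n = 4) than in control cortex (SD 0.09, n = 4), and its change of -0.96 (SE 0.19) had a limma adjusted p of 0.0413. The other 3 Kcnip genes, which bind the same channels, differed by -0.14 to -0.11 and were not called.

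Kcnmb4, the accessory subunit that gives neuronal BK channels their slow gating, read 9.47, 9.60, 9.57 and 9.73 in control cortex and 8.88, 8.88, 9.07 and 9.05 in cKO cortex. The groups were apart and tight, with SDs of 0.11 and 0.10, and the change was -0.63 (SE 0.09, limma adjusted p = 0.00671). Kcnma1, which encodes the pore of the BK channel, differed by 0.06 (SE 0.06, adjusted p = 0.835). Its 95% interval, -0.09 to 0.20, leaves out a change of the size seen for Kcnmb4. Kcnmb2, another BK accessory subunit, differed by -0.26 (SE 0.10, adjusted p = 0.367) and Kcnmb1 by -0.12 (SE 0.12).

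Kcnj6, a subunit of the inward rectifier that G-protein-coupled receptors open, read 7.08, 6.80, 6.82 and 6.84 in control cortex and 6.33, 6.56, 6.42 and 6.24 in cKO cortex. It fell by 0.50 (SE 0.10, limma adjusted p = 0.0462), with the first control array above the other 3. Its partners in the same channel were not called, at -0.15 (SE 0.13) for Kcnj3 and 0.34 (SE 0.21) for Kcnj9. Kcnk2, a leak channel gated by stretch, lipids and temperature, read 8.86, 8.76, 8.67 and 9.03 in controls and 8.25, 8.46, 8.29 and 8.43 in cKO cortex. It fell by 0.48 (SE 0.09, limma adjusted p = 0.0399), and the groups did not overlap.

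**Figure D2:**
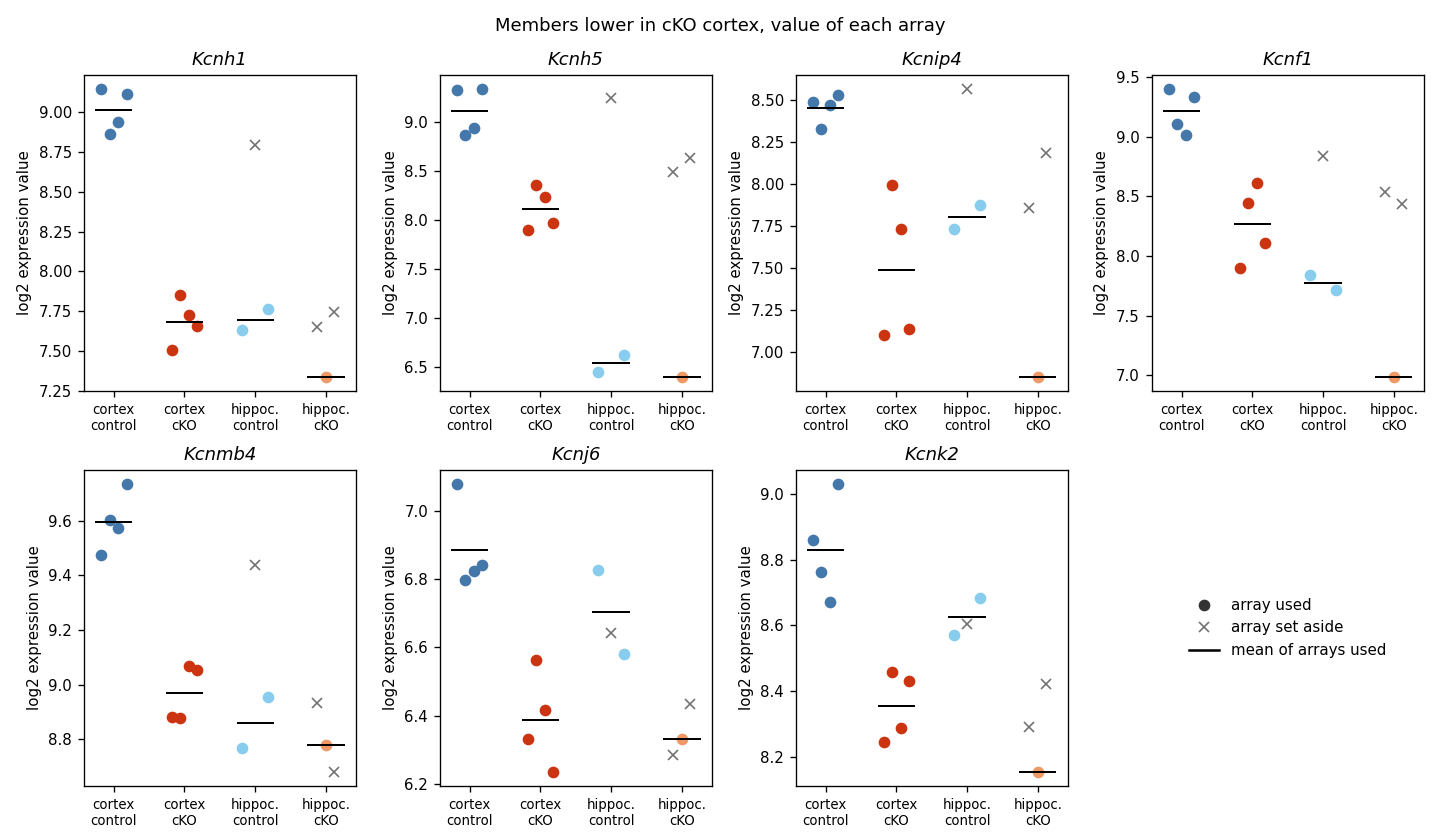
Log2 expression value of each array for the 7 potassium channel genes that fell in cKO cortex, by region and genotype; points are arrays used, crosses are the 3 arrays set aside and lines are means of the arrays used, on axes that start above 0. In each panel the 4 cortex cKO points lie below the 4 cortex control points, and for Kcnh5 the hippocampus points used lie between 6.39 and 6.62.

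How far the 7 calls held depended on the gene. Of the 11 arrays, hippocampus cKO 2 is alone in its group and leaving it out cannot change the cortex result, so the other 10 were left out in turn. Leaving out hippocampus control 1 or 3 removes no cortex array, and both fits gave the same result as the cortex arrays alone. Kcnh1, Kcnh5 and Kcnmb4 were called in all 10 of these fits, with limma adjusted p up to 0.00222, 0.0365 and 0.0299. Kcnf1 was called in 7 of 10 and lost its call without cortex control 1, cortex control 4 or cortex cKO 4 (adjusted p up to 0.0669). Kcnip4 was called in 1 of 10 (without cortex cKO 2), and Kcnj6 and Kcnk2 in 0 of 10, with adjusted p up to 0.116, 0.133 and 0.122. Without the arrays that lack Y-linked signal, which leaves cortex cKO 2 and 3, only Kcnh1 was called (-1.23, limma adjusted p = 0.0295). The remaining 6 then differed by -0.82 (Kcnh5), -0.69 (Kcnf1), -0.62 (Kcnmb4), -0.59 (Kcnip4), -0.46 (Kcnk2) and -0.40 (Kcnj6), with adjusted p from 0.121 to 0.32.

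The 10 members next in order of p were all lower in cKO cortex without passing the test. Among them, Kcnj11 and Kcnn2 were called only with a filter on low values and with array weights (below). Kcnj11, the pore of the ATP-sensitive channel, came nearest at -0.35 (SE 0.08, adjusted p = 0.0836). It read 6.94, 6.69, 6.89 and 6.88 in controls and 6.50, 6.46, 6.60 and 6.45 in cKO cortex, and the groups did not overlap. Kcnn2, a small-conductance calcium-activated channel, differed by -0.44 (SE 0.11, adjusted p = 0.1). Its values were 8.79, 9.02, 8.85 and 8.63 in controls and 8.19, 8.54, 8.41 and 8.39 in cKO cortex. Kcnh3 followed, and then Kcna4 (-0.40, SE 0.11), Kcna5 (-0.30, SE 0.08), Kcng3 (-0.49, SE 0.15), Kcnd2 (-0.25, SE 0.07), Kcns3 (-0.29, SE 0.09), Kcnj2 (-0.53, SE 0.17) and Kcna1 (-0.47, SE 0.15), with adjusted p from 0.144 to 0.246. Kcna4 and Kcnd2 carry fast-inactivating A-type currents, Kcna1 and Kcna5 are delayed rectifiers, Kcng3 and Kcns3 are silent subunits, and Kcnj2 is a strong inward rectifier. Of these 10, the groups of Kcnh3 and Kcna1 overlapped.

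All 4 cKO arrays lay below all 4 controls for 15 members, while 5.7% of all probe sets showed this. The reverse order was seen for 1 member, Kcnq3, and for 2.7% of all probe sets. Kcnq3, a subunit of the M-current, read 10.12, 10.11, 10.17 and 10.14 in controls and 10.20, 10.29, 10.28 and 10.27 in cKO cortex. Its difference of 0.13 (SE 0.06, adjusted p = 0.477) was small and did not pass the test. An unadjusted p under 0.05 was found for 22 members (30.1%) and for 11.4% of all probe sets. Of the 66 members that were not called, 51 had a 95% interval within a 1.5-fold change either way and 66 within a 2-fold change.

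By subfamily, all 7 Kcna genes had negative changes in cKO cortex, from -0.47 (Kcna1) to -0.07 (Kcna3), and none was called. The 4 Kcnn genes ran from -0.48 (Kcnn1) to 0.00 (Kcnn4), the 3 Kcnd genes from -0.25 to -0.05 and the 3 Kcns genes from -0.38 (Kcns2) to -0.16 (Kcns1), also without a call. Of 14 Kcnj genes 12 had negative changes, with Kcnj6 called, and of 10 Kcnk genes 6, with Kcnk2 called. Positive changes prevailed in Kcnc, the Shaw-type channels of fast-spiking neurons, with 0.19 for Kcnc1 and 0.02 for Kcnc4, in Kcnq (0.03 and 0.13) and in Kcnv (0.17 for Kcnv1 and 0.28 for Kcnv2). The highest change of any member was that of Kcnab2, a cytoplasmic beta subunit of Kcna channels, at 0.43 (SE 0.18, adjusted p = 0.395). Its values overlapped, with 9.42, 8.995, 9.19 and 9.56 in controls and 9.35, 9.93, 10.07 and 9.54 in cKO cortex. The 5 Kcne genes, single-span accessory subunits of which 1 exceeded the background guide, ran from -0.17 to 0.18.

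**Figure D3:**
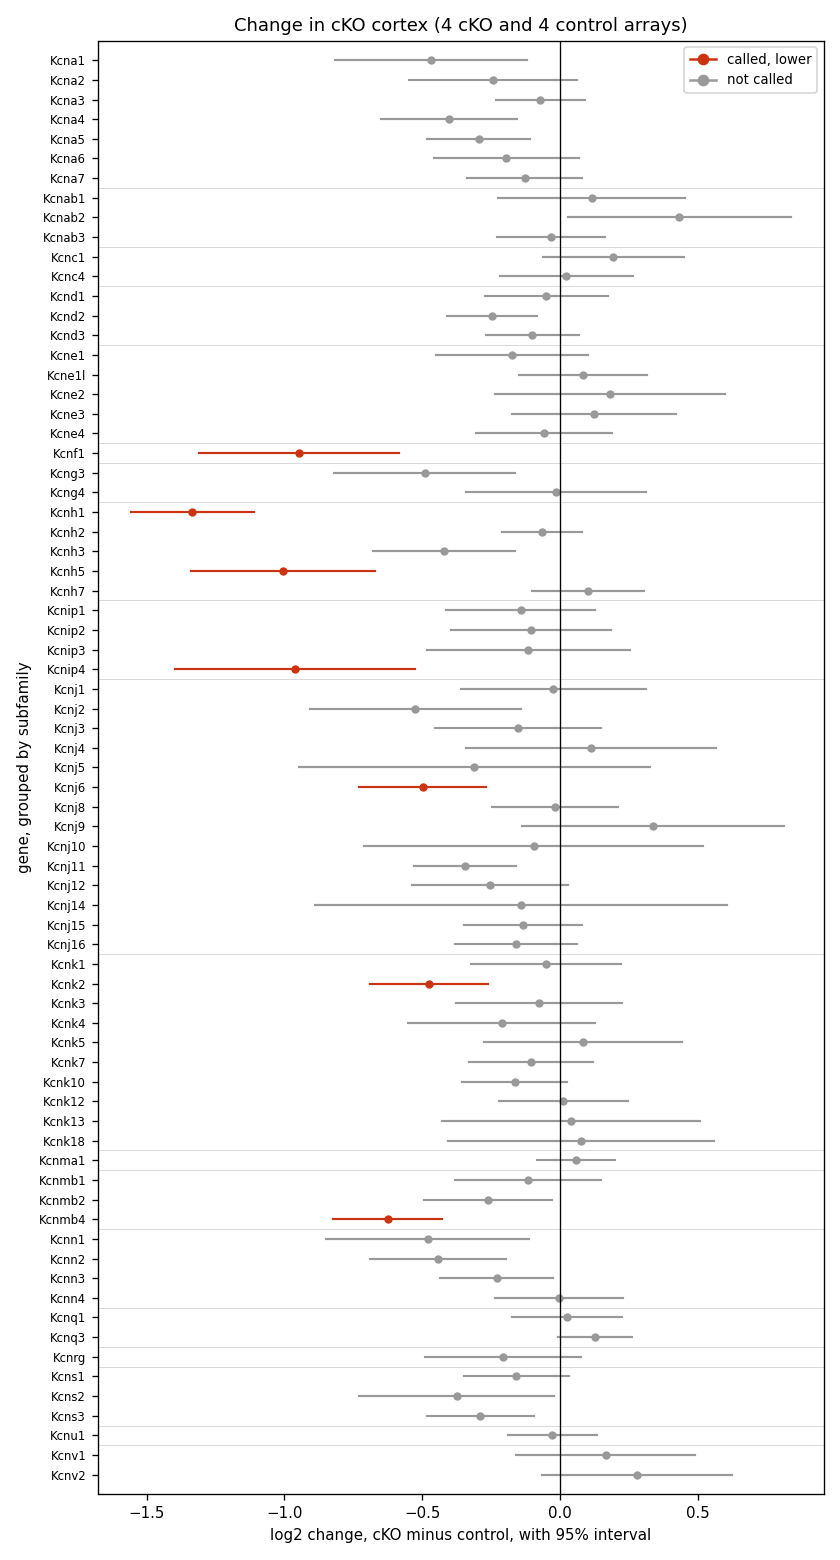
Change in cKO cortex (4 cKO against 4 control arrays) of the 73 potassium channel genes on the log2 scale, with the 95% interval of the fit; red marks called genes and grey the rest. The 7 called genes lie between -1.33 and -0.48, most grey points lie left of 0 and the highest is Kcnab2 at 0.43.

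In bulk tissue, fewer cells of a type and less RNA per cell cannot be told apart. Markers of deep cortical layers moved with the members, as 5 of 6 measured fell in cKO cortex, with Fezf2 at -1.63, Pcp4 at -1.25, Crym at -0.84, Bcl11b at -0.76 and Tle4 at -0.48, and Foxp2 at 0.10. Their summed log2 level was at least 12.001 in control and at most 11.3 in cKO cortex, and their part in the falls of the 7 members was not tested. Upper layer markers summed to 13.2 to 13.3 in both genotypes, with Unc5d higher and Lmo4 lower of 6 measured. None of the 12 interneuron, 8 astrocyte, 8 oligodendrocyte, 9 microglia or 8 vessel markers was called. All 9 microglia markers nevertheless had positive changes (median 0.34), and 7 of 8 vessel markers had negative ones (median -0.16), values beyond the members' own median of -0.12. Their part in the members' changes was not tested. Of 6 excitatory markers none was called, with 4 positive and 2 negative changes, a median of 0.15 and Neurod2 at -0.35. Of the lists left, Drd1 (1 of 3 striatal), Grik4 (1 of 6 hippocampal) and Cldn1 (1 of 7 choroid plexus markers) fell.

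Proteins that bind, anchor or drive these channels were read as a second list of 58 genes, 39 of them measured. In cKO cortex 1 fell, none rose and the median change was 0.03, beside 1.36% of all probe sets called lower. The gene that fell was Cntn2, an adhesion molecule that gathers Kcna channels beside the node of Ranvier, at -0.62 (SE 0.13, limma adjusted p = 0.0439). The receptors Htr1a and Chrm2, which act on Kcnj3 and Kcnj6 channels through G proteins, both differed by -0.49 to -0.50 (SE 0.10 and 0.11, adjusted p = 0.0536 and 0.0722) and were not called. Dpp6 and Dpp10, which join Kcnd channels, differed by -0.20 (SE 0.09) and 0.08 (SE 0.10).

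In hippocampus, with 2 control arrays and 1 cKO array, no potassium channel gene was called. The single cKO array was taken to vary like the arrays of the other groups. It lacks Y-linked signal, as does hippocampus control 1, while hippocampus control 3 carries it. The call rate over all probe sets was 0.00429%, so that the count of 0 says little about the members. An unadjusted p under 0.05 was found for 8 members (11%) and 6.21% of all probe sets, with negative changes in 51 members and a median of -0.08, beside 0.06 over all probe sets. Negative changes made up 69.9% of the members and 39.9% of all probe sets. With quantile normalization the members' median became -0.17. The value over all probe sets is not given for this setting. Before this step the cKO array had the highest median of all arrays (6.77). Kcnip4 read 7.73 and 7.87 in control hippocampus and 6.85 in cKO hippocampus, a difference of -0.95 (SE 0.33, adjusted p = 0.644). Kcnf1 read 7.84 and 7.71 against 6.98, a difference of -0.79 (SE 0.28, adjusted p = 0.643). For both genes the cKO array lay below either control array, as it did for 36 of the 73 members (49.3%). The share of all probe sets with this order is not given here, so the count cannot be read as a trait of the members.

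The remaining 5 members that fell in cortex were likewise not called in hippocampus. Their differences there were -0.47 (SE 0.16) for Kcnk2, -0.37 (SE 0.18) for Kcnj6, -0.36 (SE 0.17) for Kcnh1, -0.14 (SE 0.26) for Kcnh5 and -0.08 (SE 0.15) for Kcnmb4. Kcnmb1, which accompanies BK channels of smooth muscle, had the smallest p of the members here, with 6.30 and 6.01 in controls and 5.51 in cKO hippocampus (-0.64, SE 0.20, adjusted p = 0.562). The largest positive difference was that of Kcna3 at 0.34 (SE 0.12, adjusted p = 0.668). Intervals were wide, reaching a median of 0.45 either side of the value against 0.26 in cortex, and 27 of 73 lay within a 1.5-fold change. With all 14 arrays as labelled no member was called in hippocampus either, with 8 at an unadjusted p under 0.05 and 0.334% of all probe sets called, and Kcnh5 then differed by 0.40 instead of -0.14.

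Whether the genotype change itself differed between regions was tested as the difference of both changes, and no member was called, beside 0.00857% of all probe sets. Kcnh1 had the smallest unadjusted p, with a change that was 0.97 less negative in hippocampus (SE 0.20, adjusted p = 0.457). For Kcnh5 the difference was 0.86 (SE 0.30, adjusted p = 0.841) and for Kcnmb4 0.55 (SE 0.17, adjusted p = 0.812). For Kcnip4 and Kcnk2 it was 0.01 (SE 0.39) and 0.00 (SE 0.19). Kcnh1, Kcnh5, Kcnmb4 and Kcna3, the last at 0.41 (SE 0.14), were the 4 members with an unadjusted p under 0.05, a share of 5.48% beside 5.26% of all probe sets.

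Between control hippocampus and control cortex 16 members differed, 12 lower and 4 higher in hippocampus. This was 21.9% of the members against 12.5% of all probe sets, with 16.4% of the members lower against 6.29%, and 5.48% higher against 6.2%. The lower group held 3 of 5 Kcnh genes (Kcnh1, Kcnh5 and Kcnh7), 3 silent subunits (Kcnf1, Kcns1 and Kcnv1), the calcium-activated Kcnma1, Kcnmb4 and Kcnn1, and Kcnj9, Kcnq3 and Kcnd1. The higher group held Kcnd2, Kcnd3, Kcnk1 and Kcnj1. This comparison and that of the genotypes in cortex share the 4 cortex control arrays. Hippocampus control 1 lacks Y-linked signal, which hippocampus control 3 and all 4 cortex controls carry. With this signal as a covariate 13 members were called, 12 of them among the 16, beside 1772 calls over all probe sets. Kcnd1, Kcnd2, Kcnj1 and Kcnj9 then lost their calls.

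Kcnh5 had the largest regional difference of the called members, with 6.45 and 6.62 on the hippocampus control arrays against 8.87 to 9.34 in control cortex. It was 6.00-fold lower in hippocampus (-2.58, SE 0.18, limma adjusted p = 9.17e-05). Kcnh1 read 7.63 and 7.76 in control hippocampus, below all 4 cortex controls, with a difference of -1.32 (SE 0.12, limma adjusted p = 0.000425). Kcnh7, an erg-type channel whose level did not change detectably with genotype, read 8.10 and 8.29 against 9.39, 9.35, 9.43 and 9.38 (-1.20, SE 0.11, limma adjusted p = 0.000425). Kcnh2 and Kcnh3 differed by -0.06 and -0.13 and were not called.

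Among silent subunits Kcnf1 was 7.84 and 7.71 in hippocampus (-1.44, SE 0.20, limma adjusted p = 0.00299). Kcnv1 read 8.01 and 8.22 against 9.68, 9.19, 9.23 and 9.78 in cortex (-1.36, SE 0.18, limma adjusted p = 0.0023), and Kcns1 differed by -0.55 (SE 0.10). Kcnq3 read 9.32 and 9.43 in hippocampus and 10.12, 10.11, 10.17 and 10.14 in cortex, a tight separation of -0.76 (SE 0.07, limma adjusted p = 0.000509). Both parts of the neuronal BK channel were lower in hippocampus, Kcnma1 by 0.57 on the log2 scale (SE 0.08) and Kcnmb4 with a difference of -0.74 (SE 0.11). Kcnn1, Kcnj9 and Kcnd1 differed by -0.88 (SE 0.20), -0.99 (SE 0.26) and -0.44 (SE 0.12), and all hippocampus arrays used lay below all cortex controls.

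The Kcnd subfamily, which carries the A-type current of dendrites, was split. Kcnd2 read 10.76 and 10.96 in hippocampus against 10.58, 10.47, 10.42 and 10.56 in cortex (0.35, SE 0.09, limma adjusted p = 0.035), and Kcnd3 read 8.68 and 8.78 against 8.39, 8.21, 8.23 and 8.44 (0.41, SE 0.09, limma adjusted p = 0.0218), while Kcnd1 was lower. Kcnk1, a weak leak channel of neurons and glia, read 10.20 and 10.18 against 9.58, 9.45, 9.44 and 9.72 (0.64, SE 0.15, limma adjusted p = 0.0242). Kcnj1 was called as well (0.70, SE 0.18) but lay below the background guide in both regions, with 5.23 and 4.97 in hippocampus. Kcnab2 with 0.74 (SE 0.22, adjusted p = 0.0577) and Kcnj14 with 1.003 (SE 0.40, adjusted p = 0.14) were higher on both hippocampus arrays and missed the test.

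**Figure D4:**
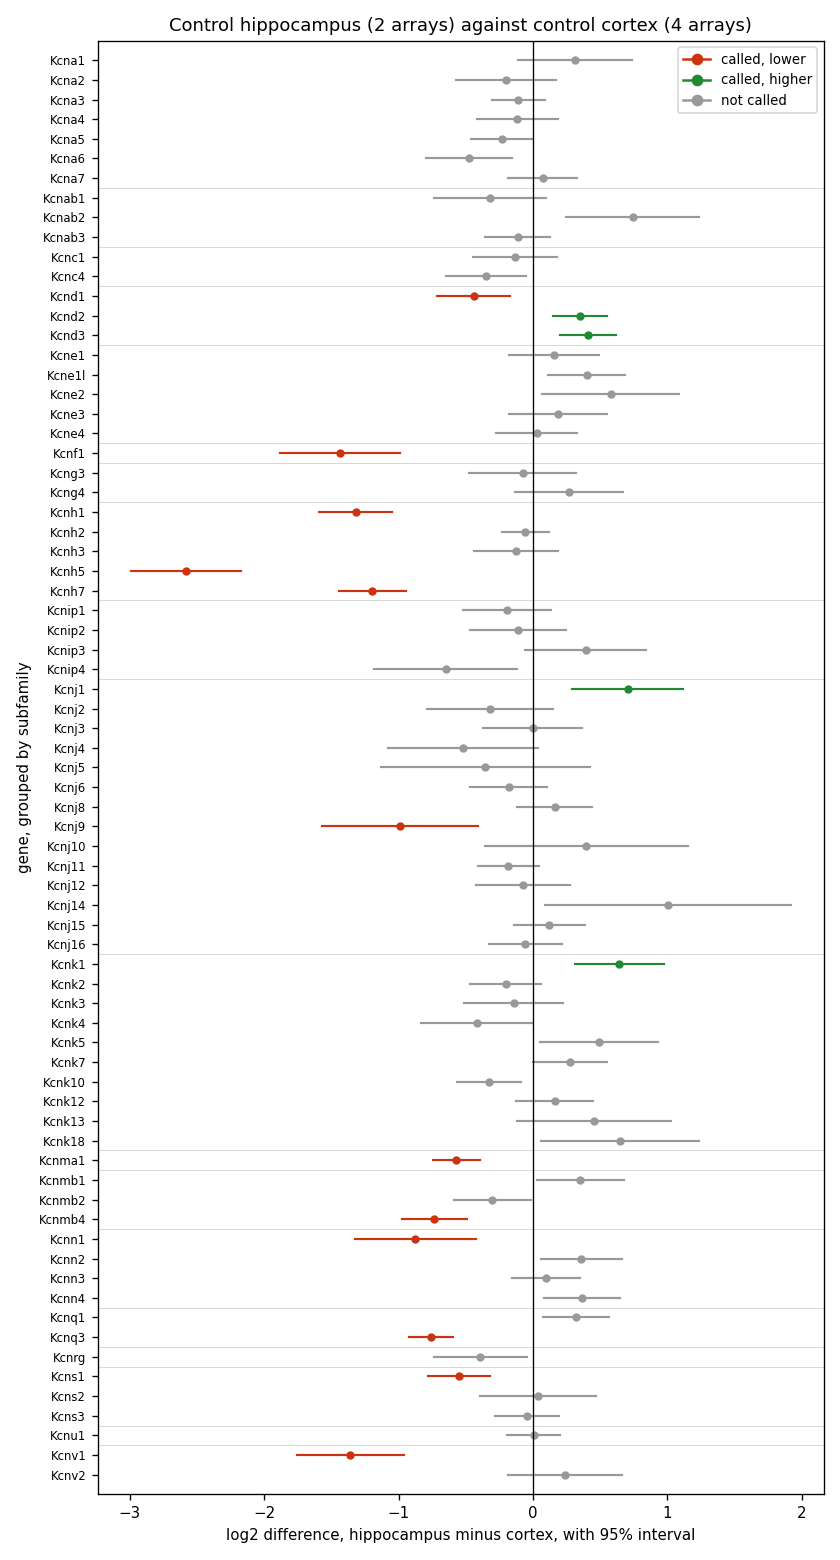
Difference between control hippocampus (2 arrays) and control cortex (4 arrays) of the 73 potassium channel genes on the log2 scale, with the 95% interval of the fit; red marks genes called lower, green genes called higher and grey the rest. Kcnh5 lies farthest left at -2.58, followed by Kcnf1, Kcnv1, Kcnh1 and Kcnh7, and the 4 green points lie between 0.35 and 0.70.

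With 2 hippocampus control arrays the regional calls leaned on single arrays. Kcnf1, Kcnh1, Kcnh5, Kcnh7, Kcnma1, Kcnq3 and Kcnv1 were called with any 1 of the same 10 arrays left out (limma adjusted p up to 0.039), and these were the 7 calls left without hippocampus control 1. The 4 higher members, Kcnd1, Kcnj9, Kcnn1, Kcns1 and Kcnmb4 lost their calls without that array. Leaving out hippocampus control 3 gave 11 calls. Leaving out either of these arrays leaves 1 control array of hippocampus and lowered the calls over all probe sets as well. The lost calls are therefore not particular to the members. When the 3 set-aside arrays were counted as hippocampus, 2 members were called, Kcnh1 lower and Kcnj1 higher. Over all probe sets the calls then went from 2913 to 635.

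Of the regional markers, 4 of 6 hippocampal ones were higher and 6 of 6 upper layer ones lower in control hippocampus. Deep layer markers did not separate the regions in this way, with 2 of 6 higher and 2 lower and a summed level of 12.4 to 12.5 in control hippocampus, above that of control cortex (at most 12.2). Choroid plexus markers moved with region too, 4 of 7 being higher, Ttr by 4.50 on the log2 scale. Their summed level was 8.12 to 8.42 in control cortex and 9.34 to 12.4 on the hippocampus control arrays. Kcne2, an accessory subunit known in choroid plexus, read 5.69 and 6.3996 on these arrays and 5.22 to 5.61 in control cortex (0.58, SE 0.23, adjusted p = 0.13). Of 8 astrocyte markers 3 were higher in hippocampus, with sums of 13.2 against 12.5 to 12.9, and of 12 interneuron markers 3 (Gad1, Sst and Pvalb). The part of these cells in the regional differences was not tested. Of the 39 partner genes 10 were lower and 1 higher in hippocampus, beside 6.29% lower and 6.2% higher of all probe sets. Among the lower ones were Dpp10 (-1.71, SE 0.12), which joins the Kcnd channels, and the receptor Chrm2 (-1.30, SE 0.14).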

How the data were processed

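Expression was measured on 14 exon arrays. Each deposited value is a log2 expression level of a probe set, made by the authors with RMA in Affymetrix Expression Console and with Partek 6.4 on mm9, tools that the submitters' processing notes list without their order. Which arrays were normalized together is not stated there. No filter was applied. The number of arrays limits the precision.

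Probe set annotation gave 14996 probe sets with 1 symbol, 1019 with several and 7317 with none. Group means were modelled over 11 arrays and all 23332 probe sets with limma 3.58.1 (lmFit, contrasts, eBayes) in R 4.3.3, with Benjamini-Hochberg adjustment over all probe sets. A call needed an adjusted p under 0.05 and a fold above 1.2. SE is the moderated standard error. The procedure was tested on simulated data.

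The members, the partner list, the marker lists and the comparisons were chosen with earlier results of these data known. Full statistics went to the members called in cortex, hippocampus or their difference, to the 10 next by p in cortex and to up to 12 called regional differences each way. Members named beside these were chosen after their values were seen. Same-numbered control and cKO cortex arrays did not deviate together, with correlations of -0.06 to 0.05, so the numbers were not used as pairs. The Y-linked signal is the mean of Eif2s3y and Kdm5d.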

Additional observations from a re-analysis of the deposited data

Results flagged for a closer look

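In 4 of 56 groups tested for a far-off array (7.14%, where chance gives about 1 in 20), 1 of the 4 values lay far from the rest. Kcnj6 read 7.08 on cortex control 1 and next 6.84. Its call in cKO cortex was lost without that array, as it was without any other of the 10 arrays left out in turn. Kcna5 read 6.48 on cortex control 3 and next 6.24. Kcnj9 read 8.33 on cortex cKO 1, below the nearest value of 8.63, and Kcnd1 read 7.98 on cortex cKO 3, above the nearest value of 7.80. Neither Kcna5, Kcnj9 nor Kcnd1 was called in cKO cortex.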

How the results depend on the processing

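The count of 7 members called in cKO cortex became 4 with the 14 arrays as labelled, with the cortex arrays alone, without moderation and with a random replicate block, 3 with the Y-linked signal as a covariate, 2 with replicate number as a fixed replicate block and 1 without the arrays that lack Y-linked signal. With single arrays left out it ranged from 3 to 7, where the 7 came from hippocampus cKO 2, the only array of its group, whose removal leaves the cortex fit as it was. The other 10 arrays gave 3 to 5, and every call left was 1 of the 7. Over all probe sets the 455 calls became 355 as labelled, 396 with the cortex arrays alone, 425 without moderation and 349 with the random replicate block. They became 282 with the covariate, 118 with the fixed replicate block and 56 without the arrays that lack Y-linked signal. The members' count rose to 9 with a filter on low values, which kept probe sets above the background guide, beside 627 calls over all. It was also 9 with array weights, beside 646 over all, and the added calls were Kcnj11 and Kcnn2 each time. Between regions the 2913 calls over all probe sets became 635 with the arrays as labelled and 402 with the replicate block. The count of 16 between regions became 2 with the arrays as labelled and 6 with the replicate block, and ranged from 7 to 16 with single arrays left out (7 to 15 without the uninformative removal of hippocampus cKO 2). No member was called in hippocampus or for the difference of changes under any alternative run. Of the values of single genes, 20 turned direction, none of them a called value. In hippocampus, Kcnh5 (-0.14) became 0.40 as labelled and 0.010 with the covariate, and Kcnmb4 ranged from -0.17 to 0.014 with single arrays left out. For the difference of changes, Kcnf1 became -0.013 with quantile normalization. Kcnip4 became -0.17 with quantile normalization, -0.086 centred on array medians and -0.20 with the replicate block, ranging from -0.12 to 0.18 with single arrays left out. Kcnk2 became -0.16 with quantile normalization, -0.094 centred, -0.062 with array weights and -0.090 with the replicate block, ranging from -0.063 to 0.060. The members' median change in hippocampus (-0.08) became -0.17 with quantile normalization, and that of the difference of changes (0.06) became -0.06 with quantile normalization and -0.04 centred. The cause of these changes was not tested. The 16 members at or below the background guide have little signal, so that small changes in them could not be seen.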

Other observations

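Some members spread widely among the arrays of 1 group. Kcnj10, the main inward rectifier of astrocytes, read 8.38, 7.51, 7.49 and 8.45 on cortex control arrays 1 to 4 and 7.49, 8.30, 8.07 and 7.59 on cortex cKO arrays 1 to 4, so that its change of -0.10 had an SE of 0.27. Kcnv1 read 9.68, 9.19, 9.23 and 9.78 on the same controls, and Kcnip3 8.62, 8.08, 8.01 and 8.67. For these 3 genes control arrays 1 and 4 were the high ones. On the cKO arrays Kcnj10 and Kcnip3 (8.05, 8.39, 8.30 and 8.18) were low on arrays 1 and 4, whereas Kcnv1 stayed between 9.57 and 9.75. Cortex cKO arrays 1 and 4 are those without Y-linked signal, while all 4 control arrays carry it.

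On the 3 arrays set aside, the members read like the cortex arrays they match. Hippocampus control 2 read 9.25 for Kcnh5, 8.80 for Kcnh1 and 9.24 for Kcnv1, where the hippocampus control arrays used read at most 6.62, 7.76 and 8.22. Hippocampus cKO 1 and 3 read 8.49 and 8.64 for Kcnh5 and 9.73 and 9.61 for Kcnv1, against 6.39 and 8.34 on hippocampus cKO 2.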
